A study of Mus musculus with 6 samples.

Results

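The genes described here encode 6 secreted peptides (Calca, Calcb, Iapp, Nts, Grp and Gal) and 2 components of the receptor for calcitonin gene-related peptide, CGRP (Calcrl and Ramp1). They are 8 of the 23284 gene symbols counted, and 6 of the 8 passed the filter on low counts that left 13390 genes for testing. They were chosen by their role in peptide signalling and with their read counts by library and in shCrebbp against control already known. Their values in that comparison are therefore given as a description, and nothing is supported by them.

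Neuroendocrine cells store peptides in dense-core vesicles and release them on demand. In the lung, CGRP and gastrin-releasing peptide are classical products of pulmonary neuroendocrine cells, the cell type from which small cell lung cancer (SCLC) commonly arises. CGRP acts on cells that carry the receptor encoded by Calcrl together with its accessory protein encoded by Ramp1, and the receptor signals through cyclic AMP. Cyclic AMP activates the transcription factor CREB, for which the acetyltransferase encoded by Crebbp, CREB-binding protein, is named.

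RNA was measured in 6 libraries of preSC cells, a mouse line that the labels call a precursor of SCLC. As background, preSC cells were derived from lungs of mice lacking Rb1 and Trp53 in lung epithelium, though the labels give no genotype. Every library carried a pLKO.1 lentiviral vector. Control replicates 1 and 2 held the empty vector (shEmpty), and control replicate 3 a hairpin that silences no gene (shNS). The knockdown libraries carried 1 of 3 Crebbp hairpins each (1, 2 and 5). No label ties libraries to separate cultures, so p-values reflect the spread between these libraries, which for the knockdown group includes differences between hairpins.

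Gene counts lay between 13622020 and 19804949 per library. Levels are given as CPM, reads of a gene per 1000000 gene reads after scaling by TMM factors, and 1 read stood for 0.0511 to 0.0735 CPM. Crebbp transcripts lay between 66.2 and 69.6 CPM in the controls, and hairpins 1, 2 and 5 gave 46.2, 58.3 and 48.9 CPM. Every hairpin library was below every control, a partial reduction that did not pass an adjusted p of 0.05 (log2 fold change -0.42 ± 0.105, SE, edgeR adjusted p = 0.0999). The neuroendocrine markers Chga, Syp, Uchl1, Ncam1 and Insm1 all exceeded 1 CPM in every library, and the summed level of these 5 genes was 2040 to 2130 CPM in controls and 2010 to 2400 CPM with hairpins. Within that sum every hairpin library was below every control for Chga (461 ± 10.5 against 378 ± 54.6 CPM, edgeR adjusted p = 0.244) and above every control for Ncam1 (193 ± 21.5 against 309 ± 85.2 CPM, adjusted p = 0.116; SD, n = 3 each). Of the markers of other cell types, all 3 of club cells, all 3 of basal cells, 3 of 4 of alveolar type 2 cells and 3 of 4 of endothelial cells stayed under 1 CPM in each library, with Scgb3a2 and Trp63 at 0 reads. The alveolar type 2 markers summed to 1.82 to 3.27 CPM in controls and 0.476 to 1.42 CPM with hairpins, mostly from Sftpc, for which every hairpin library was below every control (1.95 ± 0.739 against 0.645 ± 0.324 CPM, edgeR adjusted p = 0.144). The endothelial markers summed to 1.39 to 1.52 and 0.885 to 1.64 CPM. Fibroblast markers summed to 37.2 to 45.2 CPM in controls and 12.9 to 63.2 CPM with hairpins, almost all of it from Dcn, while Col1a1 and Col1a2 were under 1 CPM. Immune markers summed to 3.01 to 5.40 and 3.67 to 5.44 CPM and the 2 ciliated markers in the files to 6.35 to 7.25 and 7.42 to 15.2 CPM. Of the latter, Ccdc39 was above every control in every hairpin library (3.51 ± 0.122 against 8.16 ± 2.72 CPM, edgeR adjusted p = 0.0779) and Foxj1 overlapped. The part of any of these cells in the results was not tested.

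The upstream sequences of Calca and Nts are shown because these are the members whose knockdown libraries all lay on one side of the controls, in opposite directions. They come from RefSeq promoter windows (build GRCm38.p6). Each ends before the RefSeq start, or before the first annotated GENCODE transcript start where that lies further upstream in the window. The Calca sequence has 250 bases and the Nts sequence 182. Capitals mark TGACG on either strand, the core of the cyclic AMP response element (CRE), and the AP-1 motif TGANTCA. The Calca sequence is chr7:114636358-114636607 and the Nts sequence chr10:102490487-102490668, both on the minus strand and written 5′ to 3′.
Calca: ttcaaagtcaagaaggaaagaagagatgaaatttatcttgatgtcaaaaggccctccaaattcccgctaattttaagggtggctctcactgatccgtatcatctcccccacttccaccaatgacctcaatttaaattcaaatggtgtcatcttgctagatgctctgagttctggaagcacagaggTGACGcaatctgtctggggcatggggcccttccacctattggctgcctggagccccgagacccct
Nts: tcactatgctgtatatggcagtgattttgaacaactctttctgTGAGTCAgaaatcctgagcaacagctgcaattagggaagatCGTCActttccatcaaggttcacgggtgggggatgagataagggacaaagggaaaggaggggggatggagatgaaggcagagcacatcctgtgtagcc
Windows of 6 of the 8 members, all but Calcb and Grp, were searched on both strands over their whole 300 bases. The full CRE, TGACGTCA, was in none of the 6 and in 1.79% of 32851 mouse windows of that length. The shorter CRE core, which the full CRE contains, was found once each in the windows of Calca, Nts, Gal and Ramp1 and in 20.8% of all windows. The AP-1 motif was found once, in the Nts window, and in 7.81% of all windows. The E-box CANNTG was in the windows of Calca, Nts, Iapp and Ramp1 and in 72.3% of all windows. A match is a run of letters and not a measured binding site.

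Calca was by far the most abundant of the 8 transcripts. The gene yields the hormone calcitonin or the neuropeptide alpha-CGRP by alternative splicing, and counts per gene do not tell them apart. Control replicates 1, 2 and 3 gave 2010, 1807 and 1592 CPM, and hairpins 1, 2 and 5 gave 632, 831 and 1161 CPM. Every hairpin library lay below every control, and hairpin 5 was the closest to them. The mean was 1803 ± 209 CPM over controls, against 875 ± 267 CPM over the hairpins (SD, n = 3 each), a log2 fold change of -1.04 ± 0.20 (SE), or 2.06-fold lower. The reads were many, 90785 in controls and 37331 with hairpins, and counting error alone would place the ratio between 2.05 and 2.10 (exact binomial interval). The hairpins themselves differed far more than that, at -1.51, -1.11 and -0.63 on the log2 scale from the control mean, and the highest was 1.84 times the lowest. Crebbp itself was at 46.2, 58.3 and 48.9 CPM with hairpins 1, 2 and 5, from 1 library each. Any relation between the levels of Crebbp and Calca was not tested. Fewer cells making a transcript and less transcript per cell cannot be told apart in such bulk libraries.

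Per kilobase of median transcript length, Calca stood at 3174 ± 368 CPM in controls, rank 7 of 22804 genes with a known length, and at 1540 ± 471 CPM with hairpins, rank 33. Dividing by the longest transcript instead gave 1814 CPM per kilobase in controls and ranks 4 and 27. It took 0.179% of gene reads in controls and 0.0878% with hairpins. Among 657 tested genes whose log2 CPM averaged 8 or more, 3 had a more negative log2 fold change than Calca, and among all tested genes 168 had.

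**Figure D1:**
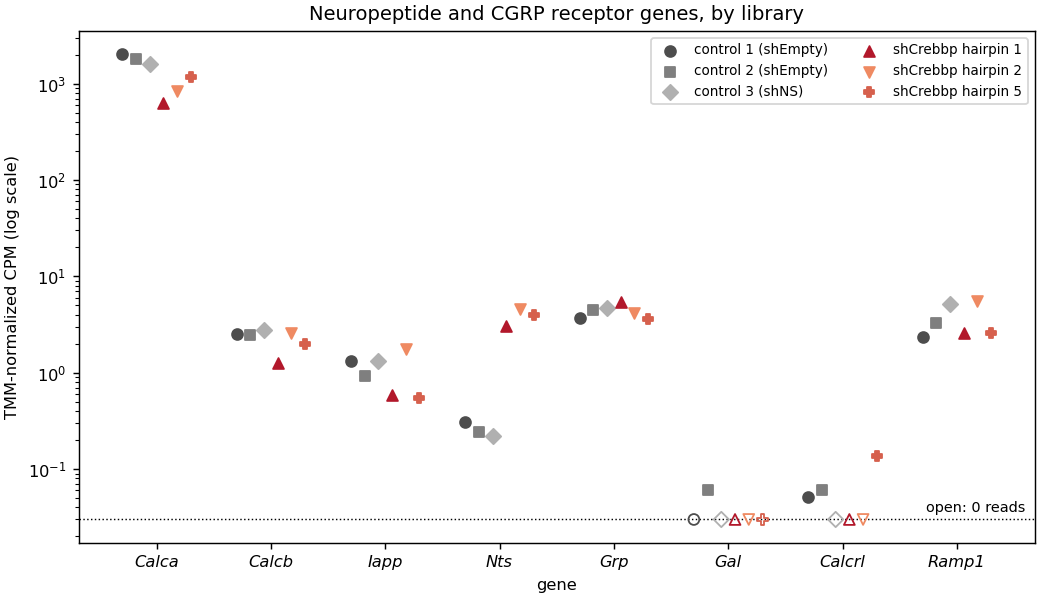
Normalized level (CPM, log scale) of each of the 8 genes in each of the 6 libraries, with gray symbols for controls, red or orange symbols for the hairpins, and open symbols on the dotted line where no read was counted. Calca lies between 632 and 2010 CPM and all other genes below 6 CPM, and only for Calca and Nts do the groups not overlap.

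Calcb and Iapp, relatives of Calca in the calcitonin peptide family, were transcribed at low levels. Calcb encodes beta-CGRP. Reads of Calcb and Calca could be lost where the genes resemble each other, since the counting left out reads with more than 1 alignment. The size of any such loss was not measured for either gene. Control replicates 1, 2 and 3 gave 2.55, 2.44 and 2.77 CPM, and hairpins 1, 2 and 5 gave 1.25, 2.56 and 1.97 CPM. Hairpin 2 lay within the control range and hairpins 1 and 5 below it, so the groups overlapped. The log2 fold change was -0.42 ± 0.31, with -0.19 without hairpin 1 and -0.68 without hairpin 2. It rested on 128 and 82 reads, whose counting interval for the ratio of hairpins to controls was 0.563 to 0.999. Per kilobase, Calca exceeded Calcb 866-fold in controls and 564-fold with hairpins (674-fold in controls by the longest transcripts).

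Iapp encodes amylin, best known as a hormone that pancreatic beta cells release with insulin. Controls gave 1.33, 0.915 and 1.31 CPM for it, and hairpins 1, 2 and 5 gave 0.588, 1.78 and 0.544 CPM. Hairpin 2 was above all controls and the other hairpins below them, a 3.27-fold range from 25 and 8 reads at its ends. The log2 fold change was -0.29 ± 0.49, with -1.06 without hairpin 2, -0.04 without hairpin 1 and -0.007 without hairpin 5. Leaving out control replicate 1 or 2 gave -0.19 and -0.45.

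Nts, the neurotensin gene, went from near the detection limit to a low but clear level. Neurotensin is a gut and brain peptide that acts on receptors encoded by Ntsr1 and Ntsr2. Control replicates 1, 2 and 3 had 6, 4 and 3 reads, and hairpins 1, 2 and 5 had 42, 64 and 59. In normalized terms these were 0.307, 0.244 and 0.219 CPM against 3.09, 4.56 and 4.02 CPM. All hairpin libraries lay far above all controls, and they resembled each other, within 1.48 times. The pooled ratio was 14.9, with a counting interval of 8.47 to 28.6, and the fitted log2 fold change was 3.86 ± 0.34. No tested gene had a larger absolute log2 fold change. Nts was tested only because its hairpin libraries passed the filter on low counts, so nothing is read from this rank.

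The filter on low counts corresponds to 0.700 CPM in at least 3 libraries. All controls were below that level for Nts, which passed only through its hairpin libraries and so had to come out higher to be tested at all. Even with hairpins, Nts stayed at 3.11 ± 0.597 CPM per kilobase, about the level of Calcb (2.73 ± 0.933) and far under Calca. Per kilobase it stood at 0.206 ± 0.0362 CPM in controls (SD, n = 3 each).

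**Figure D2:**
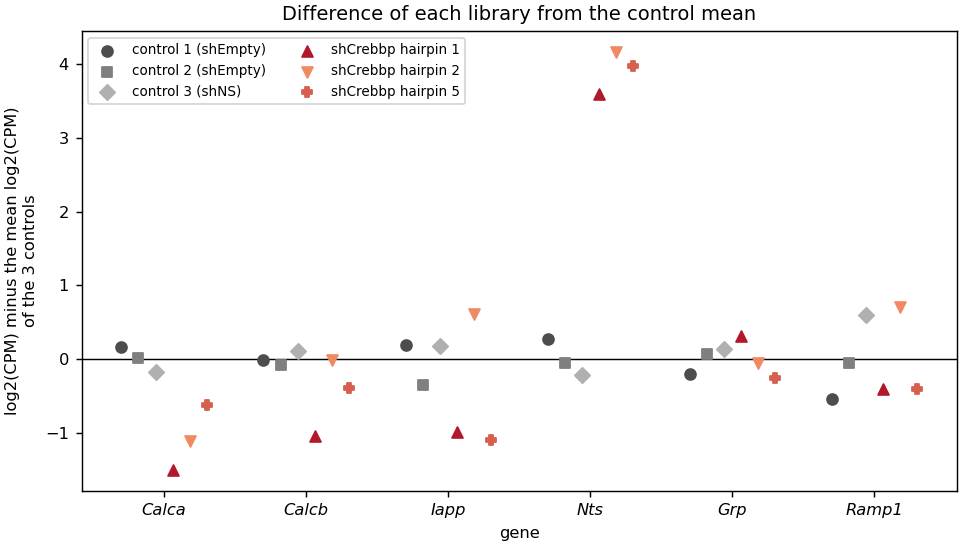
Log2 CPM of each library minus the mean log2 CPM of the 3 controls, for the 6 members that passed the filter (gray, controls; red or orange, hairpins). Nts lies 3.60 to 4.17 above the control mean with the hairpins and Calca 0.63 to 1.51 below it, while the other genes have hairpins on both sides of at least 1 control.

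Grp and Gal encode gastrin-releasing peptide, a bombesin-like growth-promoting peptide of neuroendocrine cells, and galanin. For Grp, controls gave 3.73, 4.51 and 4.74 CPM, and hairpins 1, 2 and 5 gave 5.37, 4.13 and 3.61 CPM. Hairpin 1 was above and hairpin 5 below all controls. Its log2 fold change was 0.02 ± 0.24, and the counting interval of the ratio, from 212 and 184 reads, was 0.831 to 1.25. Without control replicate 1 or without hairpin 1 the sign turned (-0.09 and -0.16). Gal had 1 read in control replicate 2 and 0 in the other libraries. The 0 reads with hairpins allow up to 0.0709 CPM over that group, by counting error alone, so any galanin transcript was under the detection limit and no fold is given.

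The receptor components were scarce. Calcrl, the ligand-binding CGRP receptor subunit, had 1 read each in control replicates 1 and 2, 2 reads with hairpin 5 and 0 in the remaining libraries. Both groups were below 3 reads, and no difference is detectable at this depth. Ramp1, its accessory subunit, reached 2.35, 3.29 and 5.18 CPM in control replicates 1, 2 and 3, and hairpins 1, 2 and 5 gave 2.57, 5.56 and 2.59 CPM. The shNS control and hairpin 2 were high and the other libraries were between 2.35 and 3.29 CPM, so that the groups overlapped over nearly their whole range. The log2 fold change was -0.002 ± 0.412. Its sign turned with limma-voom (0.009), with upper quartile normalization (0.013), and without control replicate 3 (0.34), hairpin 1 (0.19) or hairpin 5 (0.18).

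Of the 6 members tested, 1 (Nts) passed an adjusted p of 0.05 in edgeR's quasi-likelihood test of shCrebbp against control, against 1.25% of all tested genes in either direction and 0.276% in the higher direction. The hairpin libraries were all above or all below the controls for 2 of the 6 (Calca and Nts), against 22.4% of all tested genes. The members were picked with this comparison known, and Nts passed the filter only through its hairpin libraries. Nothing is therefore read from these counts. Calca did not pass in that fit (edgeR adjusted p = 0.0558). It passed with DESeq2 and limma-voom, which called 730 and 159 of all genes. In edgeR it passed without hairpin 1 or without hairpin 5, where 368 and 389 genes were called. With the other normalizations, the other filters or no robust estimation its edgeR adjusted p was 0.0549 to 0.0641. Without control replicate 3 it was 0.12, and without hairpin 2 it was 0.111. Neither Calca nor Nts passed without control replicate 1 or without control replicate 2, where edgeR called 0 genes of the whole transcriptome.

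**Figure D3:**
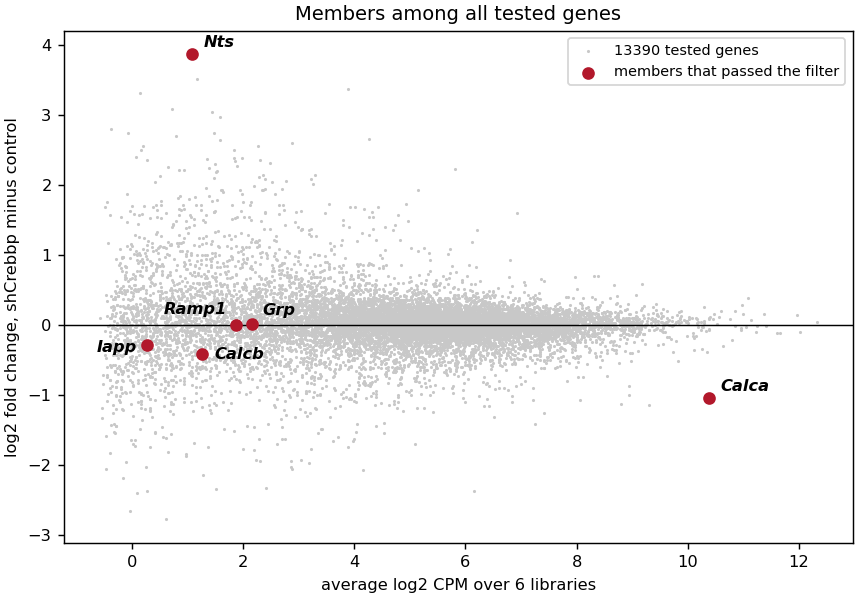
Log2 fold change of shCrebbp against control (y axis) against average log2 CPM over 6 libraries (x axis) for 13390 tested genes (gray), with the 6 tested members in red. Nts, which passed the filter only through its hairpin libraries, has the highest point of the plot at 3.86. Calca lies at -1.04 at the high end of abundance, and the other members lie between -0.42 and 0.02.

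The 2 kinds of control vector were also set against each other, although shNS is 1 library whose own spread cannot be measured. In an edgeR fit with shEmpty, shNS and shCrebbp as separate groups, the lone shNS library was assumed to have the same spread as the rest. That spread includes the differences between the hairpins. The fit therefore cannot show whether the 2 kinds of control agree, and only sizes of differences are given. The log2 difference of shNS from shEmpty was 0.88 ± 0.55 for Ramp1, -0.26 ± 0.31 for Calca and -0.33 ± 0.75 for Nts, with errors that rest on the shared spread. These libraries also serve as controls in the main comparison.

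Other genes of peptide signalling were read from 6 lists with 103 genes, of which 53 passed the filter. None passed an adjusted p of 0.05 in edgeR, beside 1.25% of all tested genes, and 9 had an unadjusted p under 0.05 (17.0%, beside 16.5%). With limma-voom 0 of the 53 were called, beside 159 of all 13390 tested genes. DESeq2 called 4 of the 53, all higher (Cck, Adcy3, Elavl2 and Elavl3), beside 730 of the 13390. The median log2 fold change was 0.07, beside 0.01 over all tested genes.

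Of 47 other peptide hormone and neuropeptide genes, 10 had no read in any library and 8 passed the filter. Of these 5 had positive and 3 negative fold changes, with a median of 0.17 on the log2 scale. Cartpt, the gene of the CART neuropeptide, was the most abundant of them at 39.9 CPM per kilobase in controls. Controls gave 36.6, 39.7 and 47.3 CPM and hairpins 1, 2 and 5 gave 58.2, 78.9 and 48.0 CPM, all hairpins above all controls, hairpin 5 by a small margin (log2 fold change 0.58 ± 0.18, edgeR adjusted p = 0.170). Cck, the cholecystokinin gene, reached 2.04, 1.71 and 2.63 CPM in the controls, while hairpins 1, 2 and 5 gave 7.20, 14.4 and 2.59 CPM, so that hairpin 5 stayed within the control range (1.92 ± 0.55, edgeR adjusted p = 0.138). Pomc, the precursor of ACTH and melanocortins, and Apln, the apelin gene, stood at 7.36 and 6.39 CPM per kilobase in controls and had adjusted p of 0.918 and 0.403 (edgeR).

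**Figure D4:**
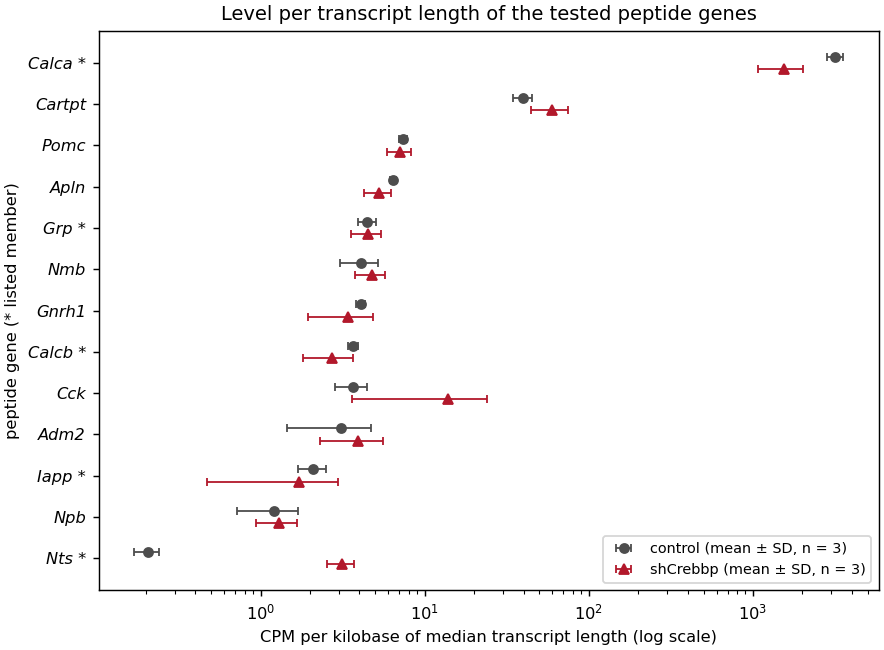
Level per kilobase of median transcript length (mean ± SD, n = 3 libraries, log scale) of the 13 peptide genes that passed the filter, in controls (gray circles) and with hairpins (red triangles), with the listed members starred. Calca at 3174 CPM per kilobase in controls is followed by Cartpt at 39.9, and Nts moves from the lowest place to near Calcb.

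Of 5 other calcitonin family receptor genes, 2 passed the filter. These were Ramp2, another accessory subunit, at 1.68 ± 0.102 and 2.04 ± 0.484 CPM in controls and with hairpins (SD, n = 3 each, edgeR adjusted p = 0.708), and Crcp, an intracellular component of CGRP receptor signalling, at 30.2 ± 2.73 and 27.9 ± 2.43 CPM (adjusted p = 0.703). Calcr, the calcitonin receptor gene, had 0 to 2 reads in each library, and it is named outside the rule for naming genes, after its values were seen. Of 9 receptor genes for neurotensin, gastrin-releasing peptide and galanin, 4 passed. Ntsr2 stood at 2.30 ± 0.465 and 1.65 ± 0.964 CPM (adjusted p = 0.626), and Sort1, which encodes the sorting receptor sortilin that also binds neurotensin, at 270 ± 27.8 and 225 ± 34.6 CPM (adjusted p = 0.363). Ntsr1, also named after its values were seen, had 2 reads in control replicate 2 and none elsewhere.

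Of 12 peptide maturation and breakdown genes, 11 passed the filter and none was called in edgeR, limma-voom or DESeq2. In edgeR 1 had an unadjusted p under 0.05 (9.09%, beside 16.5% of all tested genes). Pam, which amidates the C terminus of CGRP and gastrin-releasing peptide, was the most abundant per kilobase (824 CPM in controls), and averaged 584 ± 94.6 CPM over controls, against 544 ± 137 CPM over hairpins (edgeR adjusted p = 0.856). Pcsk1, a prohormone convertase, reached 634, 566 and 495 CPM in the controls, while hairpins 1, 2 and 5 gave 381, 350 and 552 CPM, with hairpin 5 among the controls (log2 fold change -0.40 ± 0.17, adjusted p = 0.301). Ece1, an endopeptidase that can cleave peptides after their receptors are internalized, stood at 181 ± 8.25 and 162 ± 5.31 CPM (adjusted p = 0.344).

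Genes whose pattern over the 6 libraries was most like that of a member were named by Pearson correlation of log2 CPM, among genes whose log2 CPM averaged 2 or more. With 6 libraries and 10618 or 10619 candidates, high values occur for any pattern. For Calca they were Nav2, Tnfaip8, Serpinb12, Syt9 and Nrcam, at r = 0.993 to 0.997, and 13 candidates were above 0.99. The correlation takes no account of the size of a difference. Serpinb12, a serine protease inhibitor gene, was 2.03-fold lower with hairpins, from 101 ± 13.0 to 49.7 ± 16.2 CPM (SD, n = 3 each), and Syt9, a synaptotagmin gene, 1.08-fold lower. For Nts they were Pvrl3, a nectin gene (r = 0.994, 1.50-fold higher), and Gtf2h2, a subunit gene of transcription factor TFIIH (r = 0.990, 1.24-fold higher). Calcb was most like Pdgfa and Slfn5, Iapp like B4galt1 and Sdc2, Grp like Aldoa and Bop1, and Ramp1 like Gtpbp4 and Psmc2, at r between 0.984 and 0.990.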

How the data were processed

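Poly(A) RNA of 6 libraries was sequenced. The deposited values are raw counts of reads per gene symbol, 1 file per library, in whole numbers that sum to different totals and were not normalized by the authors. The submitters' processing notes name TopHat2 2.0.12, HTSeq 0.6.1 and build mm9. Annotation and strand setting: not given in the sources used here, so overlapping and antisense genes cannot be told apart. HTSeq summary rows (24.8% to 28.9% of counts, with 14.8% to 18.1% outside genes and 9.0% to 9.7% aligned to several places) were left out. No molecular identifiers are named, and all intervals (95%) cover counting error only.

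The test was edgeR 4.0.16 under R 4.3.3 (TMM, filterByExpr with a count minimum of 10, robust quasi-likelihood fit on group), with Benjamini-Hochberg adjustment over all tested genes and a threshold of 0.05. A standard error is the absolute log2 fold change over the root of F. The tests were also run on simulated data with known changes. These had the same spread for every gene and no differences between hairpins, so they were simpler than the real libraries. Alternatives were DESeq2 1.42.0, limma-voom (limma 3.58.1), RLE and upper quartile normalization, no filter, a filter of 1 CPM in 3 libraries, no robust estimation and leaving out each library. Transcript lengths came from GENCODE vM21 (22804 of 23284 symbols matched, 97.9%). Median transcript length per gene was used, with the longest as an alternative.

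The members and lists were chosen with earlier results of these data known. The text names every member, the 2 genes of smallest p in each list where none was called, the most abundant per kilobase (3 for peptides), and the genes most correlated with each member (5 for Calca, 2 for others). Of the cell type markers listed, 1 is not reported here.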

Additional observations from a re-analysis of the deposited data

How the results depend on the processing

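Over all genes, DESeq2 called 730 instead of 168, and leaving out 1 library gave 0 to 389 (0 without control replicate 1 or 2). Of the 6 members tested, 2 (Calca and Nts) were called by DESeq2, beside 730 of all 13390 tested genes, and by limma-voom, beside 159. With 1 library left out 0 to 2 members were called, beside 0 to 389 over all genes. DESeq2 called 4 of the 53 other pathway genes past the filter. With 1 library left out 0 to 3 of the pathway genes were called: Elavl3 without hairpin 1, and Cck, Pcsk1 and Elavl2 without hairpin 5. The log2 fold change of Nts lay between 3.73 and 4.01 and that of Calca between -1.31 and -0.86 over 13 alternatives. Those of Calcb (-0.68 to -0.19) and Iapp (-1.06 to -0.007) moved by over 1.5 times with single libraries left out. The sign turned for Ramp1 with limma-voom (0.009) and upper quartile normalization (0.013), with a range of -0.47 to 0.34 when 1 library was left out, and for Grp, with -0.16 to 0.13. The cause of these changes was not tested. No paired analysis was possible because the groups share a single number in the labels, which for the knockdown group numbers a hairpin. In a library 3 reads were worth 0.153 to 0.220 CPM, and the levels of Gal and Calcrl were at or under that.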

Other observations

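The CGRP receptor signals through the cyclic AMP pathway, whose genes ranged from 0 reads (Adcy4) to 2197 CPM (Gnas) in controls. Adcy4 is named outside the rule for naming genes, after its values were seen. Of 17 genes for stimulatory G proteins, adenylyl cyclases and protein kinase A, 15 passed the filter and none was called in edgeR, with 8 positive and 7 negative fold changes, while 2 (13.3%, beside 16.5% of all tested genes) had an unadjusted p under 0.05 and DESeq2 called Adcy3. Gnas, which encodes the stimulatory G protein alpha subunit, averaged 2197 ± 61.4 CPM over controls, against 2313 ± 179 CPM over hairpins (SD, n = 3 each). Adcy3, an adenylyl cyclase gene, reached 8.02, 9.39 and 9.27 CPM in the controls, while hairpins 1, 2 and 5 gave 15.2, 14.1 and 12.9 CPM, with every hairpin above every control (log2 fold change 0.66 ± 0.14, edgeR adjusted p = 0.0733). Prkacb, a catalytic subunit gene of protein kinase A, stood at 190 ± 14.4 and 220 ± 5.57 CPM (adjusted p = 0.252).

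Splicing factors of families known to act on the choice between calcitonin and CGRP in the Calca transcript were all expressed, and none of the 13 was called in edgeR, while 4 (30.8%, beside 16.5% of all tested genes) had an unadjusted p under 0.05. Fold changes were positive in 11 of 13 (84.6%, beside 53.2% of all tested genes), their median on the log2 scale being 0.12, beside 0.01 over all tested genes. The hairpins were all above the controls in 6 (46.2%, beside 11.4% of all tested genes). In the other lists that share was 0% to 13.3%. The list was chosen with earlier results of these data known and holds genes of the same families, so nothing is read from these shares. Elavl2, which encodes a neuronal Hu RNA-binding protein, reached 72.6, 69.0 and 89.7 CPM in the controls, while hairpins 1, 2 and 5 gave 137, 196 and 106 CPM (log2 fold change 0.92 ± 0.21, edgeR adjusted p = 0.0829). Elavl3, of the same family, stood at 332 ± 15.3 and 489 ± 87.9 CPM (0.56 ± 0.13, adjusted p = 0.0822). DESeq2 called both higher, beside 730 of all 13390 tested genes in either direction. Ptbp1, the polypyrimidine tract-binding protein gene and the most abundant per kilobase, stood at 522 ± 29.4 and 493 ± 81.5 CPM (adjusted p = 0.803). Counts per gene do not show whether the share of calcitonin and CGRP transcripts differed.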
